A study of Canis lupus familiaris with 6 samples.

Results

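miR-204 (cfa-miR-204) and miR-211 (cfa-miR-211) are a pair of closely related microRNAs, taken here by their names among the 289 canine miRNAs of an Agilent array. The 2 members were chosen by their detection calls, which were set on arrays of Sca1- cells and on no array of Sca1+ cells, so the comparison of fractions below is a description without a test. The study sorted cells of 3 lines derived from canine mammary cancer (P114, CMT-U27 and CMT-U309) on the surface protein Sca1, an antigen of stem cells, and measured their miRNAs. The Sca1+ cells, which the labels name as cancer stem cells, gave 1 sample per line, and the Sca1- cells, named as the control, gave 1 sample per line. All lines were grown in serum-containing medium; the labels describe the CMT-U27 and CMT-U309 samples as mono-culture and the P114 samples as grown with macrophages.

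miRNAs are short RNAs that guide the silencing machinery to messenger RNAs, chiefly through a stretch near their 5′ end called the seed. In humans and mice miR-204 and miR-211 share their seed, lie in introns of the ion channel genes TRPM3 and TRPM1, and are abundant in the retinal pigment epithelium. miR-211 is also known from human melanocytes, where the factor MITF drives its host gene, and miR-204 has been studied in human cancers as a restraint on invasion. In the RefSeq table of dog genes (assembly UU_Cfam_GSD_1.0) the miR-204 gene lies within the bounds of TRPM3 and of a long non-coding RNA gene, LOC111096727, on chromosome 1, and the miR-211 gene within the bounds of TRPM1 on chromosome 3. The table of genes used here does not tell introns from exons.

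The array carries 2 probes for miR-204, each printed as 20 spots, and 4 probes for miR-211, each printed as 10 spots, so that each miRNA is read by 40 spots. Their sequences are shown because the miR-204 and miR-211 probes of equal length differ at 1 base, given in capitals. Each is written 5′ to 3′ as deposited.
miR-204, 19 bases: aggcaTaggatgacaaagg
miR-204, 20 bases: aggcaTaggatgacaaaggg
miR-211, 19 bases: aggcaAaggatgacaaagg
miR-211, 20 bases: aggcaAaggatgacaaaggg
miR-211, 21 bases: aggcaAaggatgacaaaggga
miR-211, 22 bases: aggcaAaggatgacaaagggaa

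Counted from 1 at the 5′ end, the difference between the probes of miR-204 and miR-211 is T6A. The 19-base probes share 18 bases and the 20-base probes share 19. No probe of another miRNA on the array shared a run of more than 8 bases with a probe of either member. The files place the longest miR-204 probe on canFam2 chr1:89887252-89887270 and the longest miR-211 probe on chr3:40737601-40737621, and give no strand. These spans are 1 base shorter than the probes, as they are for 582 of the 656 probes on the array.

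Arrays differed widely in brightness. By the sample to which each scanner file is attached, the Sca1+ arrays were D1 (CMT-U27), B1 (CMT-U309) and D3 (P114), with 39, 111 and 9 detected miRNAs. The Sca1- arrays were D2 (CMT-U27), B2 (CMT-U309) and B3 (P114), with 22, 91 and 89. B names a bright array, with over 50 detected miRNAs, and D a dim one. The deposited value table assigns 4 of the 6 arrays to other samples, and which assignment is right could not be settled. In the table B1 is P114 Sca1+, D2 is CMT-U309 Sca1+, D3 is CMT-U309 Sca1- and B2 is CMT-U27 Sca1-, while D1 and B3 are as above. B1 is thus Sca1+, and B2 and B3 are Sca1-, by both assignments, whereas the cell line of B2 is CMT-U309 by one and CMT-U27 by the other. With 1 array per line and fraction, the spread among the spots of an array measures printing and scanning error and not the spread between cultures. A weak signal in bulk RNA does not tell apart fewer cells that hold a miRNA and less of it per cell.

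miR-204 was detected on B2 and B3 alone, and miR-211 on B2 alone. The total gene signal, the software's sum over the probes it calls detected, was not measured for miR-204 on D1, B1 and D3 (Sca1+), and was 26.9 ± 6.31 on B2 and 57.0 ± 7.52 on B3 (intensity units with the error given by the file), with no detection on D2. For miR-211 it was 68.7 ± 6.71 on B2, with no detection on the 3 Sca1+ arrays or on D2 and B3. The total grows with the number of spots, being 1.33 to 1.37 times the mean spot signal for the 20-spot probes of miR-204 and 0.664 to 0.686 times for the 10-spot probes of miR-211, so the totals of the pair are not set against each other.

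The detection pattern was shared by few miRNAs. Of the 289, 12 (4.15%) were detected on at least 1 Sca1- array and on no Sca1+ array by the scanner files, and 11 (3.81%) by the value table, and both members were in each set because they were chosen that way. The opposite pattern, detection on Sca1+ arrays alone, held for 25 miRNAs (8.65%) by the scanner files and 26 (9.0%) by the value table. Leaving out B1 raised the count for Sca1- arrays alone to 61, and leaving out B2 lowered it to 7. Among the bright arrays, 4 miRNAs (1.38%) were detected on both Sca1- arrays and missing from B1, namely miR-204, miR-199, miR-99b and miR-125a. A further 6 (2.08%) were detected on B2 as the single bright array, namely miR-211, miR-885, miR-328, miR-483, miR-92b and miR-451, the last a miRNA of red blood cells that was also detected on D2. For B3 as the single bright array there were 2 (0.692%), miR-146b and miR-448. miR-451, miR-146b and miR-448 are named after their values were seen.

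The 20-base probe of miR-204 was highest on B3, then B2, then B1. Its mean spot signal was 1.57 ± 1.70 on D1, 7.60 ± 2.49 on B1 and 2.02 ± 2.27 on D3 in Sca1+ cells (SD over 20, 19 and 20 spots kept after outlier flags). In Sca1- cells it was 2.21 ± 2.01 on D2, 20.002 ± 3.93 on B2 and 29.9 ± 3.76 on B3 (SD over 17, 18 and 20 spots). The spots of B1 lay between 2.78 and 12.6, below those of B2 (13.96 to 27.6) and B3 (24.1 to 38.3), while the spots of B2 and B3 overlapped. On the dim arrays the probe stayed between -2.70 and 6.94, near the negative control spots, whose means ran from 2.63 to 4.29 over the 6 arrays.

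The 19-base probe of miR-204, shorter by 1 base, was also highest on B2 and B3. It averaged 1.69 ± 2.70 on D1, 2.54 ± 2.62 on B1 and 0.963 ± 2.29 on D3, against 1.79 ± 2.52 on D2, 12.4 ± 4.17 on B2 and 11.7 ± 2.62 on B3. The means of B2 and B3 differed by less than the spot SD on this probe, whereas on the 20-base probe the mean of B3 was above that of B2 by more than it. The lowest spots of B2 and B3, at 4.53 and 7.39, lay below the highest spot of B1, at 8.12. All 20 spots of each miR-204 probe were significantly positive by the file's flag on B2 and on B3. Only 9 of 20 spots of the 20-base probe were well above background on B2, a stricter flag, against 20 of 20 on B3.

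**Figure D1:**
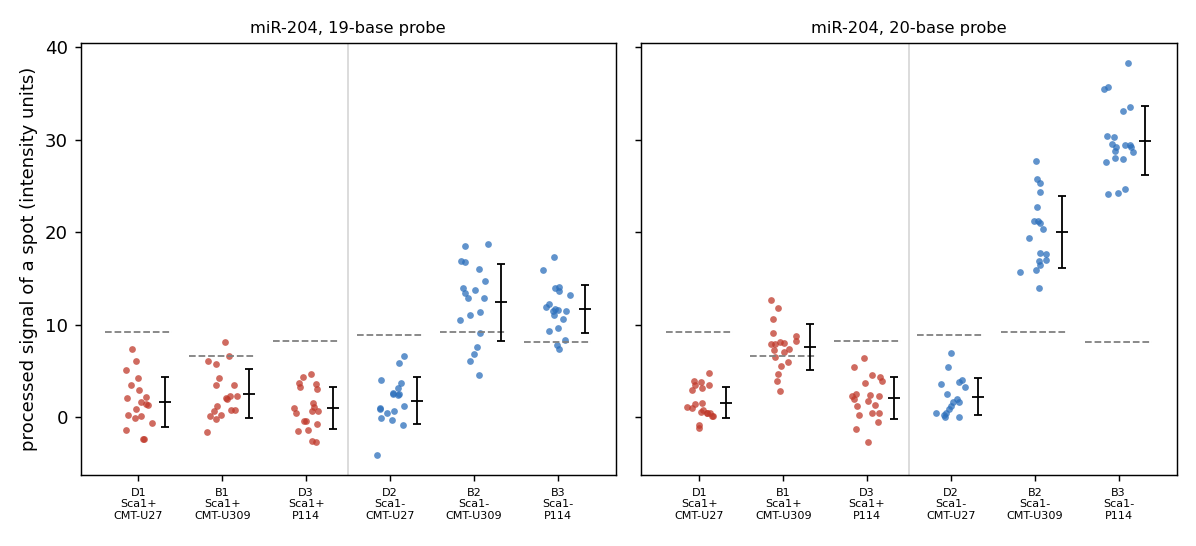
Processed signal of each spot (intensity units) of the 19-base and 20-base miR-204 probes on the 6 arrays, Sca1+ in red and Sca1- in blue, with cell lines as attached to the scanner files. Outlier-flagged spots are left out, black marks give mean and SD over spots, and the dashed line is the 95th percentile of the array's negative control spots; on the 20-base probe the B1 spots (2.78 to 12.6) straddle that line, and the B2 and B3 spots lie above it.

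On the Sca1+ array B1, miR-204 lay just under detection. The detection call follows 1 rule throughout the files: a miRNA is called detected where at least 1 of its probes has a total probe signal over 3 times its error, which matched all 1734 calls (289 miRNAs on 6 arrays). On B1 the 20-base probe of miR-204 had a total probe signal of 10.3 ± 3.81 (the file's error), or 2.70 times its error. Among the 418 probes whose miRNAs were not detected on B1, it ranked 3 by total probe signal and 4 by signal over error. The total grows with the number of spots. Of the 20 spots of this probe, 13 exceeded the 95th percentile of the negative control spots there (6.59). On B1 19 of the 20 spots were significantly positive, a share of 95% that only 7 of those 418 probes (1.67%) reached. The same flag was set for 44.2% of the negative control spots on that array. The lowest total gene signal of any detected miRNA on B1 was 10.5.

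The limit therefore decides whether miR-204 counts as seen on Sca1- arrays alone. With a limit of 2.5 times the error, chosen after the data were examined, miR-204 was detected on B1, B2 and B3, and miR-211 was still detected on B2 alone, as it was with a limit of 2. The total probe signal of the 20-base probe was 10.3 on B1, against 26.9 on B2 and 41.0 on B3, before any scaling between arrays. With B1 set to the lowest signal among its probes well above background, as for a miRNA below detection, and arrays scaled to probes measured on all 6, miR-204 was at least 2.85-fold lower on B1 than the mean log2 level of B2 and B3. The bound was 2.45-fold against B2 alone and 3.30-fold against B3 alone, and without scaling it was 1.86-fold against the mean. These values describe 1 Sca1+ array and 2 Sca1- arrays and carry no p-value.

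The same limit sets the ratio of miR-204 between B2 and B3. On B2 the 19-base probe reached 2.80 times its error and was left out of the total gene signal, which then held the 20-base probe alone. On B3 it reached 3.50 times its error and was added. By total gene signal B2 was at 0.472 of B3, but by the sum of both probes (43.6 on B2 and 57.0 on B3) it was at 0.764. The 19-base probe by itself was 16.7 on B2 and 16.1 on B3 as a total probe signal. Totals that leave out a probe were common, being found for 27 of the 91 miRNAs detected on B2 (29.7%) and 20 of the 89 on B3 (22.5%).

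miR-211 stood out on B2 in each of its 4 probes and on no other array. On B2 its mean spot signals were 18.9 ± 6.21 for the 19-base probe, 25.8 ± 5.62 for the 20-base probe, 30.8 ± 7.50 for the 21-base probe and 26.6 ± 4.35 for the 22-base probe (SD over 8, 10, 10 and 10 spots). Of the 40 spots on B2, 39 were significantly positive and 30 were well above background. Each of the 4 probes passed the detection limit there, at 4.06 to 5.83 times its error, so all of them entered the total.

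On the Sca1+ arrays the 21-base probe of miR-211 averaged 2.32 ± 2.53 on D1, 4.73 ± 2.32 on B1 and 3.01 ± 0.496 on D3, and on the other Sca1- arrays 2.33 ± 1.87 on D2 and 3.52 ± 2.58 on B3. Its lowest spot on B2, at 21.5, was above its highest spot on every other array. The highest ratio to its error that any miR-211 probe reached outside B2 was 1.93, for the 22-base probe on D1. On B1 and B3, 16 and 14 of the 40 spots were significantly positive, and none was well above background. miR-211 was at least 2.80-fold higher on B2 than the mean limit of B1 and B3. The bound was 3.74-fold against B1 alone and 2.10-fold against B3 alone. Against the mean it was 1.85-fold with scaling over all probes. From the total gene signal the ratio was 7.57-fold, with the lowest total of any detected miRNA as the low side (10.5 on B1 and 7.82 on B3). Such a total can sum another number of probes, so that ratio is not a bound for miR-211. The 2.80-fold bound compares a Sca1- array with 1 Sca1+ array and 1 Sca1- array, so it is not a difference between fractions.

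**Figure D2:**
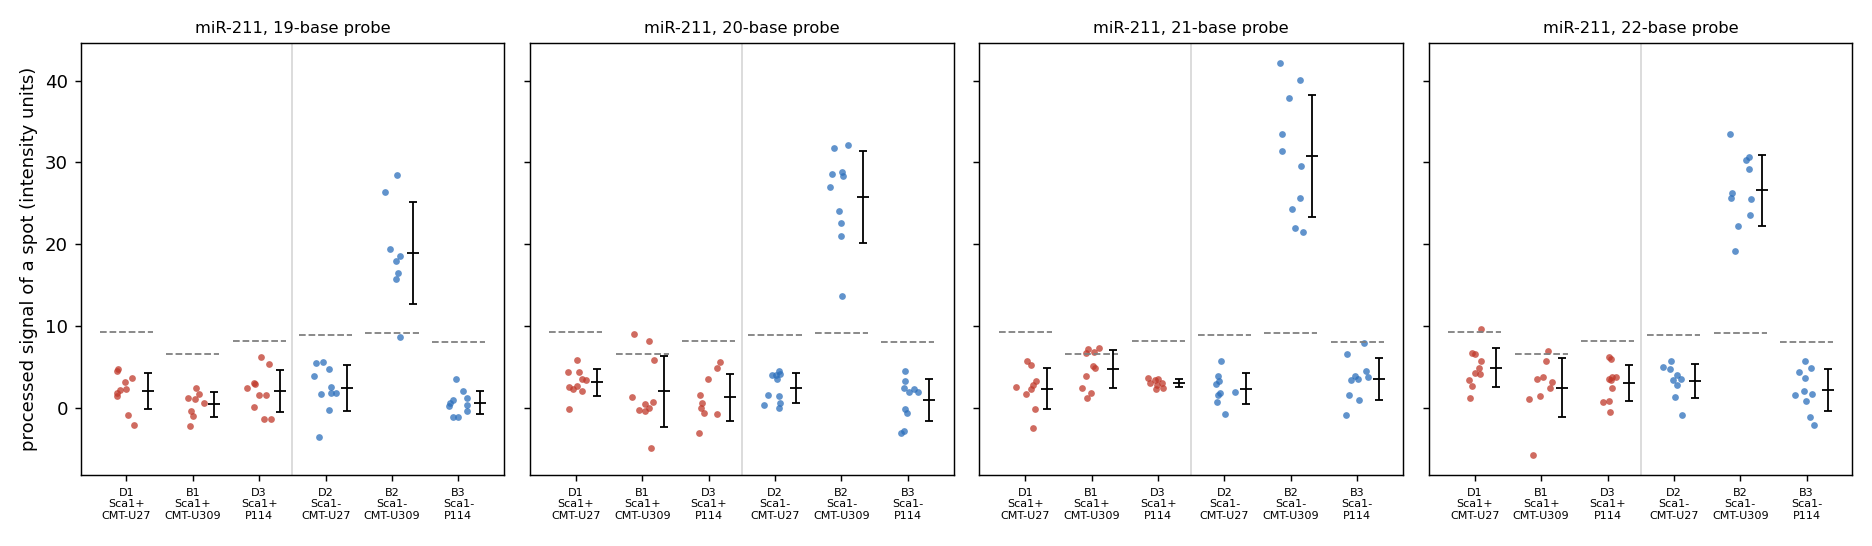
Processed signal of each spot (intensity units) of the 4 miR-211 probes on the 6 arrays, drawn as for miR-204: Sca1+ in red, Sca1- in blue, mean and SD over spots in black, and the 95th percentile of negative control spots dashed. The B2 spots stand apart in the 20-base, 21-base and 22-base probes (lowest 13.7, 21.5 and 19.2), and on the 19-base probe the lowest B2 spot (8.67) lies just under the dashed line.

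The pair can be told apart on B3. There the 20-base miR-204 probe had all 20 spots well above background, while the 20-base miR-211 probe, which differs from it at the 1 base given above, averaged 0.972 ± 2.55 with 0 of 10 spots well above background. On B2 both were above background, the miR-211 probe with 8 of 10 spots well above it. No array held miR-211 without miR-204, and binding of either miRNA to the other's probes on B2 was not tested.

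**Figure D3:**
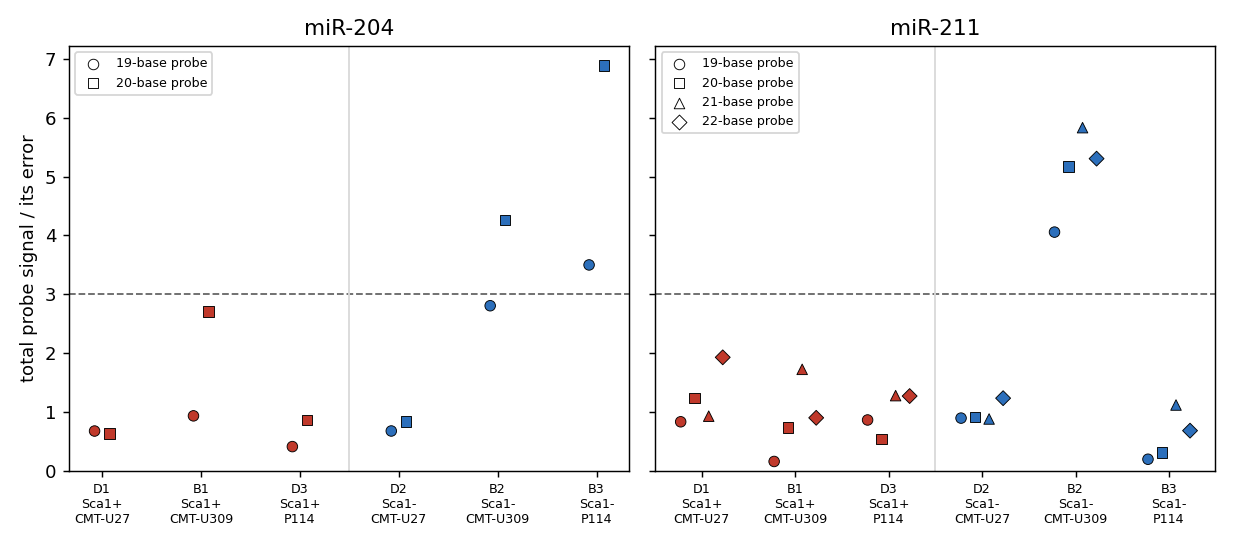
Total probe signal divided by its error (no unit) for each miR-204 and miR-211 probe on the 6 arrays, Sca1+ in red and Sca1- in blue, with the detection limit of 3 dashed. The 20-base miR-204 probe lies at 2.70 on B1, under the limit, and at 4.26 on B2 and 6.88 on B3, and the miR-211 probes pass it on B2 alone.

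The cell lines were compared next, the 1 contrast that the choice of the pair did not use. By the labels P114 was grown with macrophages and the other lines were not, so line and culture cannot be told apart for P114. Neither miRNA passed the test. In limma over all 289 miRNAs, with the fraction as a term and 2 samples per line, miR-204 had an adjusted p of 0.999 (unadjusted 0.873) and miR-211 an adjusted p of 0.999 (unadjusted 0.980). No miRNA passed (0 of 289, 0.0%), and 13 had an unadjusted p under 0.05. By the value-table assignment the adjusted p was 0.831 for miR-204 and 0.271 for miR-211, again with 0 of 289 called. Without D3, 27 miRNAs passed, and without B3, 24, neither member among them. The fit sets arrays where the pair was not detected against those where it was. Its values for both miRNAs on D1, D2, D3 and B1, and for miR-211 on B3, are below detection. With such values and 2 residual degrees of freedom, the test cannot show that the lines are alike. After scaling, the log2 level of miR-204 was -8.33 on D1 and -5.76 on D2 for CMT-U27, -7.96 on B1 and -5.81 on B2 for CMT-U309, and -5.29 on D3 and -5.38 on B3 for P114. D3, where miR-204 was not detected, then lay beside B3. The scaled levels of miR-211 were -8.56 on D1 and -5.67 on D2, -8.78 on B1 and -5.20 on B2, and -2.95 on D3 and -9.90 on B3, so that its highest scaled level fell on D3, where it was not detected either.

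The miRNAs whose total gene signal followed that of miR-204 most closely over the 6 arrays were miR-199, a miRNA of mesenchymal cells, then miR-99b, miR-125a, miR-149 and miR-140. Their Pearson correlations of log2 total gene signal with miR-204 were 0.995, 0.994, 0.9899, 0.938 and 0.868 over 6 arrays. The first 3 were detected on the same arrays as miR-204, so the correlations rest on the value of 0.1 that the files write for a miRNA not detected. miR-99b and miR-125a lie in 1 cluster in the human genome. miR-199 had 245 on B2 and 193 on B3, miR-99b 80.3 and 57.4, and miR-125a 31.8 and 17.8. These 3 were higher on B2 than on B3, while miR-204 was higher on B3 by total gene signal. miR-149 was detected on all 6 arrays, at 39.7, 45.1 and 33.5 on D1, B1 and D3 and 38.6, 107 and 79.2 on D2, B2 and B3. miR-140, of cartilage and stromal cells, was also detected on B1, at 19.9, against 390 on B2 and 430 on B3.

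For miR-211 the closest were miR-885, miR-328, miR-483, which lies within IGF2 in humans, and miR-92b. All 4 were detected on B2 alone, like miR-211, at 63.8, 75.8, 42.1 and 9.13, and with 1 array above the floor their correlation is 1 by construction. The next was miR-223, a miRNA of myeloid cells, at 0.791, which was detected on all 6 arrays and matched the calls of miR-211 on 1 array of 6.

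Other miRNAs listed for the tissues in which the pair is best known, and miRNAs of introns, were counted next. Of 9 miRNAs listed for pigment cells, lens and retina, the pair included, 0, 5 and 0 were detected on D1, B1 and D3. On D2, B2 and B3 the counts were 0, 6 and 5, with both members of the pair counted on B2 and miR-204 on B3. The pair was chosen for detection on Sca1- arrays alone, so it raises the counts of B2 and B3 by that choice. In the same order, 39, 111 and 9 and 22, 91 and 89 of all 289 miRNAs were detected. The sensory cluster of miR-183, miR-96 and miR-182, and miR-7, were detected on all bright arrays. Each of them had its highest total gene signal on B1, before any scaling between arrays. The remaining 3, named after their values were seen, were miR-9 on B1 alone, and miR-184, of lens and cornea, and miR-124, of neurons, on no array. Another list held 23 miRNAs named as lying in introns of protein-coding genes, whose places in the dog genome were not checked here apart from the pair. Of these, 9, 16 and 1 were detected on D1, B1 and D3. On D2, B2 and B3 the counts were 2, 15 and 15, with the pair again counted on B2 and miR-204 on B3. Apart from the pair, which was chosen for it, no member of either list was detected on Sca1- arrays alone by the scanner files. That pattern held for 12 of all 289 miRNAs (4.15%), so its absence from lists this short does not set them apart. The test among cell lines called 0 of 289 miRNAs, so it tells nothing particular about either list.

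Among the marker lists of other cell types, the epithelial one differed most in its calls between B1 and the other bright arrays. Of all 289 miRNAs, 39, 111 and 9 were detected on D1, B1 and D3, and 22, 91 and 89 on D2, B2 and B3. Of 7 epithelial miRNAs, 0, 5 and 0 were detected on D1, B1 and D3, with summed signals of 0, 5129 and 0. On D2, B2 and B3, 1, 1 and 0 were detected, with sums of 23.9, 28.9 and 0. miR-200c and miR-429 of the miR-200 family, miR-203 and miR-205 were detected on B1 alone, and miR-141 on B1, D2 and B2. miR-200a and miR-200b were detected on no array. Of 6 mesenchymal and stromal miRNAs, 2 were called on B1, 3 on B2 and 3 on B3, and 1 on each dim array, with sums between 60.3 and 18192 on the Sca1+ arrays and between 113 and 32774 on the Sca1- arrays, mostly from miR-21, while miR-143, miR-145 and miR-214 were detected on none. Of 5 leukocyte and macrophage miRNAs, 3 were called on B1, 2 on B2 and 2 on B3, and 1 on each dim array, with sums of 61.2 to 948 on the Sca1+ arrays and 59.6 to 219 on the Sca1- arrays. Of these 5, miR-223 was detected on all 6 arrays, miR-155 on B1, B2 and B3, and miR-146a on B1 alone. miR-142 and miR-150 were detected on none. The part of these markers in the pattern of miR-204 and miR-211 was not tested.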

How the data were processed

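Total RNA of the 6 samples was hybridized to Agilent miRNA arrays, 1 channel each. The authors deposited an intensity for each spot, read with Agilent Feature Extraction. Its version is 10.10.1.1 in the file headers, whereas the submitters' processing notes give 10.7.3.1. Per the file headers, background subtraction and spatial detrending were applied to the processed signal, and arrays were not scaled to each other. The deposited value table holds linear intensity. Each column equalled the total gene signal of 1 scanner file for all 311 features (relative tolerance 0.0001), the same sample's file for 2 columns and another sample's for 4. The labels name Cy5 while the files hold a green channel, which was not settled.

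Probes and spots of both miRNAs were read by gene name. For the fits, signals not above 0 took the array's smallest positive signal, log2 was taken, and spots were averaged per probe without outliers. Arrays were then scaled to the 75th percentile of 10 probes well above background on all arrays, and each miRNA took its brightest probe. lmFit and eBayes of limma 3.58.1 (R 4.3.3) tested the lines with the fraction as a term, leaving 2 residual degrees of freedom. Benjamini-Hochberg adjustment was applied at 0.05. The code was also run on simulated data with a fixed spread not taken from these arrays, which does not measure the power here. Samples are labelled as biological replicates, with no account of separate cultures, and each p-value covers no more than the variation among these 6 samples, which may be technical. The number of arrays limits the precision. The members, lists and rules were chosen with earlier results of these data known. The miRNAs named are both members, the 5 nearest to each by correlation, and list members. Lists of pigment, intronic and marker miRNAs are described by counts. Alternatives were the background correction, scaling, probe summary, floor, detection filter, fraction term, value-table assignment and leaving out each sample. Mature sequences were not used here.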

Additional observations from a re-analysis of the deposited data

How the results depend on the processing

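Neither miRNA passed the test among cell lines under any alternative, and most of the values entering it were below detection for both. The adjusted p of miR-204 ran from 0.564 to 0.998 over 10 alternatives and from 0.799 to 1.000 when 1 sample was left out, and that of miR-211 from 0.271 to 0.999 over 9 and from 0.185 to 1.000. The count of miRNAs called was 0 of 289 as reported, 1 with the total gene signal, 27 without the P114 Sca1+ sample (D3) and 24 without the P114 Sca1- sample (B3), each with 1 residual degree of freedom when a sample was left out, and neither member was among them. The bound for miR-204 on B1 was 1.86-fold with no scaling, 2.45-fold with B3 left out and 3.30-fold with B2 left out. The bound for miR-211 on B2 was 1.85-fold with scaling over all probes and 2.08-fold with no scaling. It was 2.10-fold with B1 left out and 3.74-fold with B3 left out. With the total gene signal the ratios were 3.72-fold for miR-204 and 7.57-fold for miR-211. These set a member against the lowest total of any detected miRNA, which is not a detection limit for that member. The cause of these differences was not tested. The count of miRNAs detected on Sca1- arrays alone, 12 as reported, was 14 with a detection limit of 2.5 and 16 with a limit of 2, of which 10 and 6 were among the 12, and it ran from 7 (without B2) to 61 (without B1) when 1 sample was left out. miR-211 was not among the 7, since B2 is its 1 array. These alternatives for the count were chosen after the data were examined. Signal over background limits all values: on D1, D2 and D3 no probe of either miRNA passed the detection limit.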
